A study of Arabidopsis thaliana with 6 samples.

Results

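The xyloglucan endotransglucosylase/hydrolases (XTHs) of Arabidopsis thaliana, XTH1 to XTH33, were followed in seedlings that carry 35S::CUC2-GR and were or were not given dexamethasone. The members were taken by their AGI locus codes, and all 33 were found among the 33602 gene models counted. They were divided by their number into subgroup I (XTH1 to XTH11, 11 genes), subgroup II (XTH12 to XTH26, 15 genes), subgroup III-A (XTH31 and XTH32, 2 genes) and subgroup III-B (XTH27 to XTH30 and XTH33, 5 genes). All 6 libraries came from whole seedlings of the one genotype at Boyes stage 1.02, kept in vitro at 21 °C (LD in the labels). The 3 Dex libraries came from plantlets in 10 mL of liquid medium that received 10 µL of dexamethasone 6 h before freezing, and the 3 no_Dex libraries came from plantlets listed as not treated. In this line the NAC transcription factor CUC2 is made from the viral 35S promoter, which is active in most tissues and not only at the organ boundaries where CUC2 normally acts, and is fused to the hormone-binding part of the glucocorticoid receptor, which dexamethasone releases to the nucleus. A mock treatment and a line without the transgene were not analysed here, so responses to CUC2-GR, to dexamethasone and to handling cannot be told apart.

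Xyloglucan is the main hemicellulose of the primary wall in Arabidopsis and coats and tethers cellulose. XTH enzymes are secreted into the wall, where they cut a xyloglucan chain and either join the new end to another chain (transglucosylation) or release it with water (hydrolysis). Members of subgroups I, II and III-B are known mainly as transglucosylases, and XTH31 and XTH32 of subgroup III-A are the members grouped with plant xyloglucan hydrolases. Their transcripts are known to respond to auxin, brassinosteroid, gibberellin, touch and shade, and the members differ in the organ and growth zone where they are expressed.

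The catalytic glutamates, and the aspartate between them, lie in a stretch of 9 codons, which is shown here because it is the part of the enzyme that defines the family. The 27 bases of that stretch were found in 32 of the 33 coding sequences of the TAIR10.1 assembly. Its first codon lay between codons 96 and 125, and XTH11 had no match to the pattern searched. All 32 sequences differed from each other in bases, while they encoded 7 versions of the stretch, of which 1 was shared by 22 members. Shown 5′ to 3′ on the coding strand are the members of subgroup III and, of the others, abundant members and pairs of close relatives whose values are compared further on. Capitals mark the codons of the glutamate, the aspartate and the second glutamate.
XTH4: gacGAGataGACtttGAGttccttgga
XTH5: gatGAGataGACtttGAGtttctaggg
XTH6: gacGAGctaGATtttGAGttcttggga
XTH7: gacGAGcttGATtttGAGttcttagga
XTH9: aacGAAttcGATtttGAGttcttaggg
XTH17: gatGAGatcGATttcGAGttcttggga
XTH18: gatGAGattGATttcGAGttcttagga
XTH22: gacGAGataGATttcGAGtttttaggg
XTH23: gacGAGattGACtttGAGttcttggga
XTH24: gatGAGattGATtttGAGttcttgggt
XTH27: gatGAGataGATtttGAGtttcttggt
XTH28: gacGAGattGATtttGAGtttttgggg
XTH29: gacGAActaGACataGAGtttttaggg
XTH30: gacGAGttaGACataGAGtttctaggg
XTH31: gatGAGgtcGATatcGAGtttctaggg
XTH32: gatGAGgtaGACataGAAtttttgggg
XTH33: gacGAGataGACataGAAttgttgggt
XTH29, XTH30, XTH31, XTH32 and XTH33 have ata or atc before the last capital codon, where XTH27 and XTH28, like the members of subgroups I and II shown, have ttt or ttc. Against XTH4 the stretch differed by 4 of 27 bases in XTH5, 5 in XTH7, 6 in XTH22 and 9 in XTH31 and in XTH32. Over whole coding sequences the 528 pairs of members were 42.2% to 92.2% identical, with a median of 51.9%, and 8 pairs were at least 80% identical.

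In seedlings given dexamethasone the family's transcripts were lower as a sum, and the members that changed were mostly lower. Of the 33 members, 28 passed the filter on low counts and were tested. In edgeR's quasi-likelihood fit, with p-values adjusted over all 21344 genes tested after Benjamini and Hochberg (BH), 11 of them fell, 2 rose and 15 were not called at an adjusted p under 0.05. The 11 that fell were XTH4, XTH6, XTH8, XTH15, XTH16, XTH17, XTH18, XTH19, XTH21, XTH22 and XTH33, and the 2 that rose were XTH5 and XTH28. The share of tested members that fell was 39.3%, where 8.40% of all tested genes fell, and the share that rose was 7.14%, where 5.99% of all tested genes rose. The median log2 fold change (Dex minus no_Dex) was -0.35 over the tested members and 0.01 over all tested genes. Of the 28 tested members, 15 had all 3 Dex values below the 3 no_Dex values (18.3% of all tested genes), 4 had them above (18.1%) and 9 overlapped; among all tested genes 36.3% had no overlap. All 13 calls were lost when a minimum fold change of 1.5 was required, and the changes were modest, between 0.30 and 1.05 in absolute log2 fold change. The number of members that fell was 6 without no_Dex replicate 1 and 6 without no_Dex replicate 2, where the number of all genes that fell went from 1792 to 1007 and 785. The number that rose was 1 without any 1 of no_Dex replicates 1 and 2 and Dex replicates 2 and 3. CUC2 itself, transgene and native gene counted together, had 832 to 890.3 CPM in no_Dex and 856 to 874 CPM in Dex (CPM are pairs scaled to library size, without regard to length). In whole seedlings, fewer cells that express a gene and less RNA per cell cannot be told apart.

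**Figure D1:**
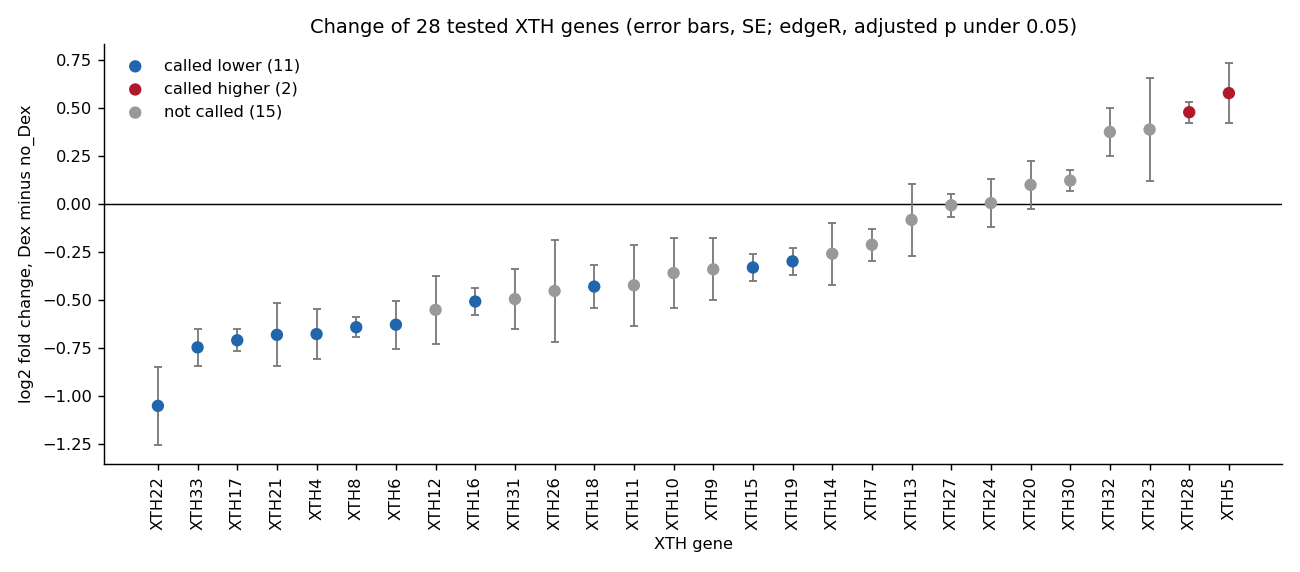
Log2 fold change (Dex minus no_Dex) with its SE for each of the 28 tested XTH genes, in rising order, from 3 libraries per group. The 11 genes called lower include XTH22 at -1.05, and the 2 genes called higher are XTH28 and XTH5, at 0.48 and 0.58.

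Levels are given as read pairs per kb of gene model, scaled to library size by TMM (RPKM), so that members can be compared with each other. Summed over the 33 members the level was 2719, 2578 and 2546 RPKM in no_Dex replicates 1 to 3 and 2117, 1935 and 2046 RPKM in Dex replicates 1 to 3. The 2 groups did not overlap, and the Dex mean was 77.7% of the no_Dex mean. XTH4 alone took 25.7% of the summed no_Dex level, and the 10 most abundant members took 79.4%. The loss of XTH4 was 252 of the 582 RPKM by which the sum was lower. Without XTH4 the sum was still lower, at 83.0% of its no_Dex mean.

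**Figure D2:**
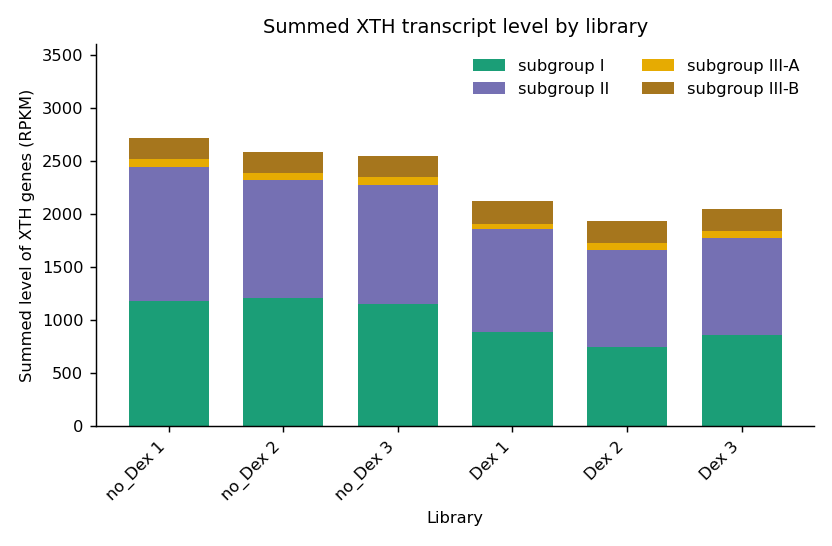
Summed level (RPKM) of the XTH genes in each of the 6 libraries, stacked by subgroup. The Dex libraries reach 1935 to 2117 RPKM and the no_Dex libraries 2546 to 2719 RPKM.

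The subgroups differed in how much of the decrease they carried. Subgroup I summed to 1179 ± 24.8 RPKM (SD, n = 3) in no_Dex and 829 ± 77.2 RPKM in Dex, and subgroup II to 1165 ± 83.8 and 933 ± 29.1 RPKM. In both the Dex values lay below all no_Dex values. Much of the subgroup I decrease lay in 1 gene, XTH4, whose mean went from 671 RPKM in no_Dex to 419 RPKM in Dex. Subgroup III-A stood at 71.6 ± 5.85 RPKM in no_Dex and 60.7 ± 12.5 RPKM in Dex, with overlapping values, and subgroup III-B at 199 ± 3.87 and 210 ± 5.68 RPKM, with the Dex values above. The rise of the III-B sum lay mostly in XTH28, whose mean went from 42.5 to 59.1 RPKM. XTH30 went from 34.6 to 37.6 RPKM, XTH27 from 102 to 101 RPKM and XTH33 from 19.8 to 11.8 RPKM. Of 8 tested members of subgroup I, 3 fell (37.5%) and 1 rose (12.5%). Of 14 in subgroup II, 7 fell (50%) and none rose. Of 6 in subgroup III, 1 fell and 1 rose (16.7% each). Of all tested genes 8.40% fell and 5.99% rose, and the shares of subgroup III rest on 1 gene in each direction. The difference in response between subgroups was not tested.

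**Figure D3:**
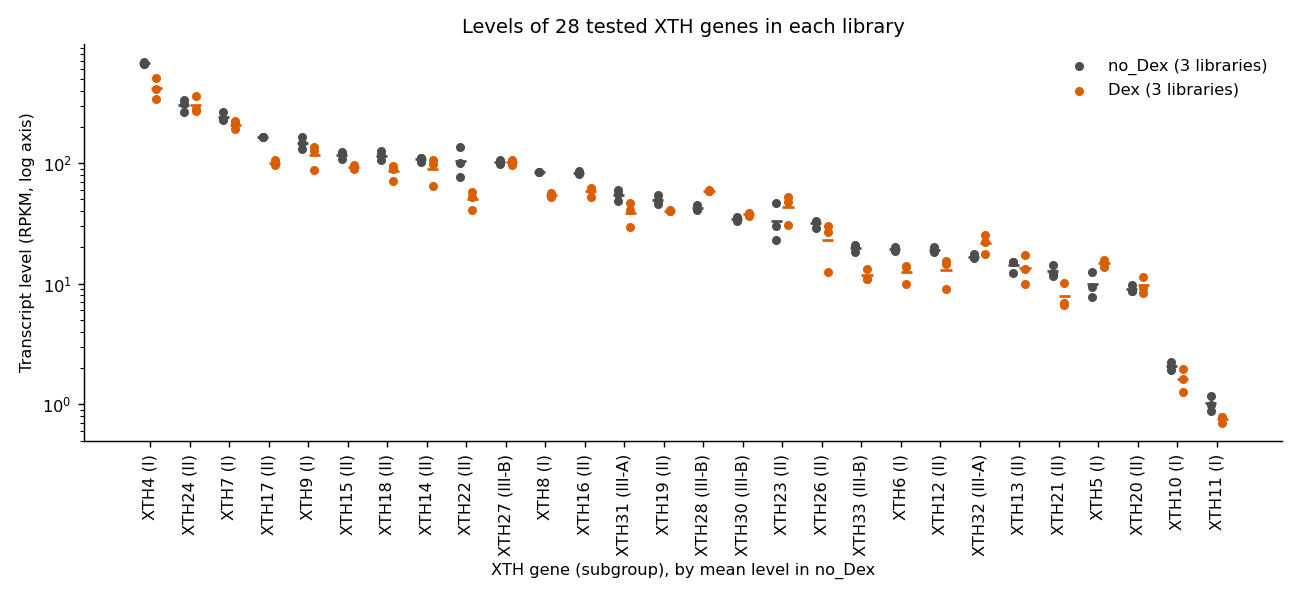
Level in each library (RPKM, log axis) of the 28 tested XTH genes, ordered by their mean in no_Dex, with a bar at each group's mean and the subgroup in brackets. Levels span from about 671 RPKM for XTH4 to 1.02 RPKM for XTH11 in no_Dex.

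Subgroup I held the most abundant member. XTH4 (AT2G06850, chromosome 2, 2763449 to 2765743, plus strand), a transglucosylase of elongating tissue and of stem vascular tissue, stood at 664, 689 and 660.3 RPKM in no_Dex replicates 1 to 3 and at 506, 341 and 411 RPKM in Dex replicates 1 to 3. Its no_Dex values lay close together and every Dex value was lower, with Dex replicate 1 the least so. XTH4 fell by 0.68 on the log2 scale (with an SE of 0.13; edgeR, BH-adjusted p = 0.0119), a call that did not hold when no_Dex replicate 2 was left out (edgeR, BH-adjusted p = 0.0568). Its closest relative by coding sequence, XTH5 (AT5G13870, chromosome 5, 4474922 to 4477090, minus strand), went the other way. XTH5 stood at 9.47, 7.75 and 12.6 RPKM in no_Dex and at 15.8, 13.7 and 14.8 RPKM in Dex, so that the highest untreated library came close to the lowest treated one. XTH5 rose by 0.58 on the log2 scale (with an SE of 0.16; edgeR, BH-adjusted p = 0.0442). That call did not hold when no_Dex replicate 1 or 2, or Dex replicate 2 or 3, was left out (edgeR, BH-adjusted p = 0.143, 0.119, 0.0782 and 0.0965), and also with single reads, with length offsets and with length and GC offsets (0.0512, 0.0512 and 0.0511).

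XTH8 (AT1G11545, chromosome 1, 3878495 to 3880391, minus strand) gave one of the 2 smallest p-values of the family. It stood at 84.7, 85.2 and 84.1 RPKM in no_Dex and at 56.4, 52.1 and 54.2 RPKM in Dex. Values within each group were nearly the same and the groups were far apart. XTH8 fell by 0.64 on the log2 scale (with an SE of 0.05; edgeR, BH-adjusted p = 0.000394). XTH6 (AT5G65730, chromosome 5, 26298728 to 26300529, plus strand) stood at 20.3, 19.3 and 18.6 RPKM in no_Dex and at 9.94, 13.8 and 13.96 RPKM in Dex, with Dex replicate 1 lowest. It fell by 0.63 (SE 0.12; edgeR, BH-adjusted p = 0.0139), a call that did not hold when no_Dex replicate 1 or 2 was left out (edgeR, BH-adjusted p = 0.0591 and 0.0598).

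The other 4 tested members of subgroup I were not called. XTH7, the third most abundant member, stood at 242 ± 20.5 RPKM (SD, n = 3) in no_Dex and 209 ± 15.2 RPKM in Dex, a log2 fold change of -0.21 (SE 0.08; edgeR, BH-adjusted p = 0.125). XTH9, known for its expression in shoot apices, stood at 132, 166 and 146 RPKM in no_Dex and at 87.1, 126 and 137 RPKM in Dex. These groups overlapped, and the log2 fold change was -0.34 (SE 0.16; edgeR, BH-adjusted p = 0.196). With the replicate number as a block XTH9 was called lower (edgeR, BH-adjusted p = 0.0429), but not when length and GC offsets were added to the block (0.0507). XTH10 and XTH11 were rare, at 2.09 and 1.02 RPKM in no_Dex, with log2 fold changes of -0.36 and -0.42 and edgeR, BH-adjusted p of 0.230 and 0.217.

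Subgroup II held the largest change of the family. XTH22 (AT5G57560, chromosome 5, 23307006 to 23308680, minus strand), also called TCH4 and known as a gene induced by touch, brassinosteroid and auxin, stood at 135, 99.4 and 76.5 RPKM in no_Dex and at 52.1, 57.2 and 40.6 RPKM in Dex. Untreated libraries varied widely, by 28.4% of their mean (SD), yet all lay above every treated one. XTH22 fell by 1.05 on the log2 scale (with an SE of 0.20; edgeR, BH-adjusted p = 0.0125), and without 1 library at a time the log2 fold change ranged from -1.23 to -0.82 and stayed called.

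XTH17, XTH18 and XTH19, of the root-expressed group that also holds XTH20, all fell. XTH17 (AT1G65310, chromosome 1, 24257054 to 24258506, plus strand) stood at 166, 165 and 166 RPKM in no_Dex and at 99.9, 96.6 and 107 RPKM in Dex. Its untreated values differed by less than 1 RPKM, and it fell by 0.71 on the log2 scale (with an SE of 0.06; edgeR, BH-adjusted p = 0.000394). XTH18 (AT4G30280, chromosome 4, 14825757 to 14827211, minus strand) stood at 125, 116 and 105 RPKM in no_Dex and at 95.5, 89.8 and 71.7 RPKM in Dex, and fell by 0.43 (SE 0.11; edgeR, BH-adjusted p = 0.0369). XTH19 (AT4G30290, chromosome 4, 14828712 to 14830224, minus strand) stood at 54.5, 45.5 and 49.1 RPKM in no_Dex and at 40.7, 40.3 and 40.2 RPKM in Dex, and fell by 0.30 (SE 0.07; edgeR, BH-adjusted p = 0.0267). Both smaller changes lay near the threshold. Without 1 library at a time the log2 fold change was -0.52 to -0.32 for XTH18 and -0.36 to -0.23 for XTH19. The XTH18 call was lost in every fit that left out a library other than Dex replicate 1 (edgeR, BH-adjusted p = 0.0600 to 0.124). The XTH19 call did not hold when no_Dex replicate 1 or 3, or Dex replicate 2 or 3, was left out (0.0695 to 0.0812). XTH20 was rarer, at 9.03 ± 0.608 RPKM in no_Dex and 9.68 ± 1.599 RPKM in Dex, with a log2 fold change of 0.10 (SE 0.12; edgeR, BH-adjusted p = 0.642). The coding sequences of these 4 genes were 83.9% to 92.2% identical, with an identical run of 68 bases between XTH18 and XTH19, and XTH12 and XTH13 (89.7%) share a run of 47 bases. Read pairs that aligned equally well to 2 genes were not counted, so the levels of these 6 genes are uncertain, and the pairs lost per gene were not measured.

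XTH15 and XTH16, which are known to be induced in shade during petiole growth, were both lower. XTH15 (AT4G14130, chromosome 4, 8137020 to 8138392, minus strand) stood at 124, 119.6 and 107 RPKM in no_Dex and at 88.9, 96.9 and 92.8 RPKM in Dex. XTH15 fell by 0.33 (SE 0.07; edgeR, BH-adjusted p = 0.0166), a call that did not hold when no_Dex replicate 1 or 2 was left out (edgeR, BH-adjusted p = 0.0639 and 0.0763). Its annotated gene overlaps AT4G14120 on the opposite strand by 382 bases, and reads of the 2 genes in that stretch cannot be told apart without strand. AT4G14120 was counted at 1.76 RPKM in no_Dex and 2.19 RPKM in Dex, far under XTH15. XTH16 (AT3G23730, chromosome 3, 8550037 to 8551403, plus strand) stood at 81.2, 85.7 and 82.2 RPKM in no_Dex and at 62.7, 52.5 and 59.8 RPKM in Dex, and fell by 0.51 (SE 0.07; edgeR, BH-adjusted p = 0.00340). XTH21 (AT2G18800, chromosome 2, 8144881 to 8146477, plus strand), known for a part in root growth, stood at 12.3, 14.3 and 11.6 RPKM in no_Dex and at 6.97, 10.2 and 6.69 RPKM in Dex. It fell by 0.68 (SE 0.16; edgeR, BH-adjusted p = 0.0291), and the call was lost in every fit that left out a no_Dex library and without Dex replicate 3 (0.0670 to 0.119).

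The other 7 tested members of subgroup II were not called. XTH24, the second most abundant member and first described from meristems, stood at 332, 268 and 310.0 RPKM in no_Dex and at 363, 268 and 281 RPKM in Dex. The groups overlapped almost fully, with a log2 fold change of 0.00 (SE 0.13; edgeR, BH-adjusted p = 0.989). XTH23 stood at 46.9, 30.4 and 22.9 RPKM in no_Dex and at 52.8, 47.4 and 30.8 RPKM in Dex, a log2 fold change of 0.39 (SE 0.27; edgeR, BH-adjusted p = 0.378). XTH23 was called higher with the replicate number as a block (edgeR, BH-adjusted p = 0.0243), and each Dex value lay above the no_Dex value of the same number. XTH12 stood at 18.3, 18.6 and 20.3 RPKM in no_Dex and at 9.03, 14.6 and 15.5 RPKM in Dex, a log2 fold change of -0.55 (SE 0.18; edgeR, BH-adjusted p = 0.0740). XTH12 was called lower with the block (edgeR, BH-adjusted p = 0.0281), with length and GC offsets (0.0437) and without Dex replicate 1 (0.0104), where the log2 fold change was -0.34. It was also called lower by the DESeq2 Wald test (DESeq2 adjusted p = 0.0200), which called 13 members lower in all. Its neighbour XTH13, with a coding sequence 89.7% identical, had a log2 fold change of -0.08 (with an SE of 0.19; edgeR, BH-adjusted p = 0.804), and the sign turned without Dex replicate 1 (0.10). XTH14 and XTH26, root transglucosylases of which XTH26 is known from root hairs, had log2 fold changes of -0.26 and -0.45 (SE 0.16 and 0.27; edgeR, BH-adjusted p = 0.325 and 0.292).

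In subgroup III the 2 calls went in opposite directions. XTH28 (AT1G14720, chromosome 1, 5066525 to 5068677, minus strand), known for stamen filament growth, stood at 40.7, 41.8 and 44.9 RPKM in no_Dex and at 58.8, 59.4 and 59.1 RPKM in Dex. The 3 treated values were nearly the same and lay above the untreated ones, and XTH28 rose by 0.48 on the log2 scale (with an SE of 0.05; edgeR, BH-adjusted p = 0.00149). XTH33 (AT1G10550, chromosome 1, 3479066 to 3481041, minus strand), a member known to be held at the plasma membrane, stood at 18.3, 20.1 and 21.0 RPKM in no_Dex and at 13.3, 11.01 and 10.9 RPKM in Dex. XTH33 fell by 0.75 (SE 0.10; edgeR, BH-adjusted p = 0.00246). XTH8, XTH16, XTH17, XTH22, XTH28 and XTH33 stayed called in all 6 fits without 1 library.

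XTH27, known from leaf veins, stood at 102 ± 4.28 RPKM (SD, n = 3) in no_Dex and 101 ± 4.08 RPKM in Dex, a log2 fold change of -0.01 (SE 0.06; edgeR, BH-adjusted p = 0.951). XTH30 had a log2 fold change of 0.12 (with an SE of 0.06; edgeR, BH-adjusted p = 0.184). Of the subgroup III-A genes, XTH31 stood at 60.0, 48.5 and 56.0 RPKM in no_Dex and at 29.4, 40.9 and 46.3 RPKM in Dex, a log2 fold change of -0.50 (SE 0.15; edgeR, BH-adjusted p = 0.0692). XTH31 was called lower without Dex replicate 1, at -0.33 (edgeR, BH-adjusted p = 0.0235), and without Dex replicate 3, at -0.64 (0.0378), and by the DESeq2 Wald test (DESeq2 adjusted p = 0.0129). XTH32 stood at 16.3, 16.6 and 17.6 RPKM in no_Dex and at 17.7, 22.2 and 25.5 RPKM in Dex, a log2 fold change of 0.37 (SE 0.12; edgeR, BH-adjusted p = 0.0800). XTH32 was called higher without Dex replicate 1, at 0.51 (edgeR, BH-adjusted p = 0.00126), and with the replicate block (0.0334).

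The filter left out 5 members. XTH1 and XTH3 had no pair in any library, where a count of 0 allows up to 3 pairs, or 0.102 to 0.115 CPM. XTH2 had 0 to 3 pairs and XTH29 had 0 to 2 pairs in each library. XTH25 had 5, 5 and 8 pairs in no_Dex and 3, 1 and 2 pairs in Dex. Its Dex counts lay at or under the limit of 3 pairs for a count of 0, and its no_Dex counts lay above that limit. XTH25 was not tested, and no fold change is given for it. XTH25 lies between XTH13 and XTH22 on chromosome 5, 565 bases from XTH22, which had 1218 to 4210 pairs in each library.

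Closely related members were compared within each library. Pairs were taken in which each gene was the other's closest relative and both were tested, a rule set after the members' values had been seen, and the ratio of the 2 levels was compared between groups. This gave 8 pairs. In 6 of them the log2 ratio did not overlap between Dex and no_Dex. Single values did not overlap for 36.3% of all tested genes, and the share over other gene pairs was not measured. These 6 pairs hold the called members XTH4, XTH5, XTH6, XTH22 and XTH28, so their ratios partly repeat those calls. Each of the 6 had an exact two-sided permutation p of 0.1, the smallest that 3 libraries against 3 allow. After Benjamini-Hochberg adjustment over the 8 pairs this p was 0.133, and with that floor no pair could pass 0.05. XTH22 over XTH23, 78.7% identical, had a log2 ratio of 1.53, 1.71 and 1.74 in no_Dex and of -0.02, 0.27 and 0.40 in Dex. The mean was lower by 1.44 in Dex, 8.28 times the SD within groups, so this pair went from unlike to nearly equal levels. XTH4 over XTH5 had a mean log2 ratio of 6.11 ± 0.38 (SD, n = 3) in no_Dex and 4.81 ± 0.18 in Dex. XTH31 over XTH32 had 1.70 ± 0.17 and 0.82 ± 0.08, and XTH27 over XTH28 had 1.26 ± 0.11 and 0.78 ± 0.06. XTH6 over XTH7 and XTH12 over XTH13 differed by -0.43 and -0.48. The remaining pairs, XTH15 over XTH16 and XTH17 over XTH18, differed by 0.18 and -0.27, with overlapping groups (exact permutation p = 0.2 and 0.3, adjusted p = 0.229 and 0.3).

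**Figure D4:**
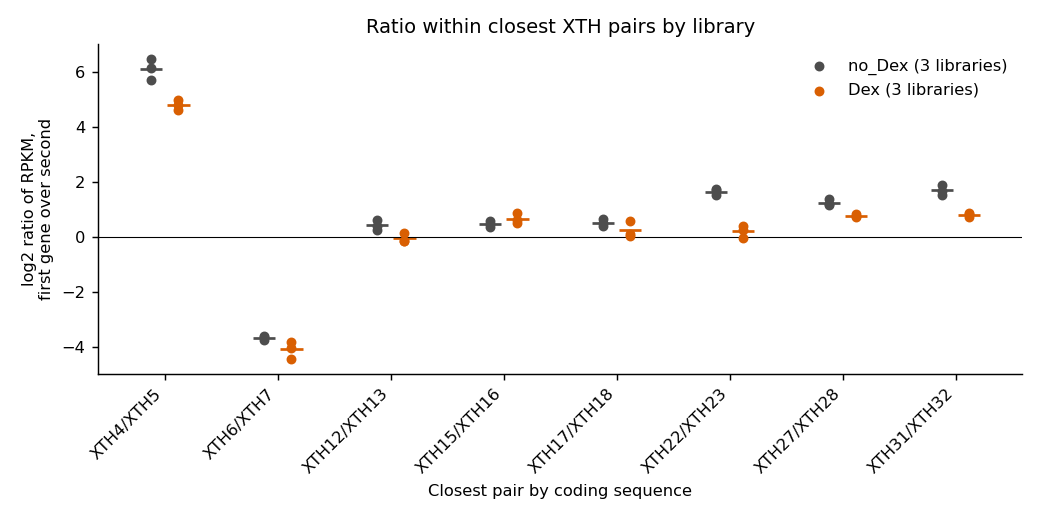
Log2 ratio of the levels (RPKM) of the first over the second gene in 8 closest pairs, for each library, with a bar at each group's mean. For XTH22/XTH23 the no_Dex libraries lie at 1.53 to 1.74 and the Dex libraries at -0.02 to 0.40.

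Dex replicate 1 stood apart from the other Dex libraries across all genes, with correlations of log2 CPM of 0.988 and 0.987 with them, where theirs with each other was 0.994. XTH members went both ways in it. It was the lowest of the Dex libraries for 11 of the 28 tested members and for 8569 of all 21344 genes tested, a similar share. XTH26 stood at 35.7, 31.8 and 36.5 CPM in no_Dex and at 13.7, 29.6 and 32.7 CPM in Dex. XTH14 stood at 110.0, 103 and 109 RPKM in no_Dex and at 64.0, 99.0 and 106 RPKM in Dex. In both genes Dex replicate 1 alone was far under the rest. Without Dex replicate 1, the 11 members that fell and the 2 that rose were all called, XTH12 and XTH31 were added to the lower ones and XTH32 to the higher ones.

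**Figure D5:**
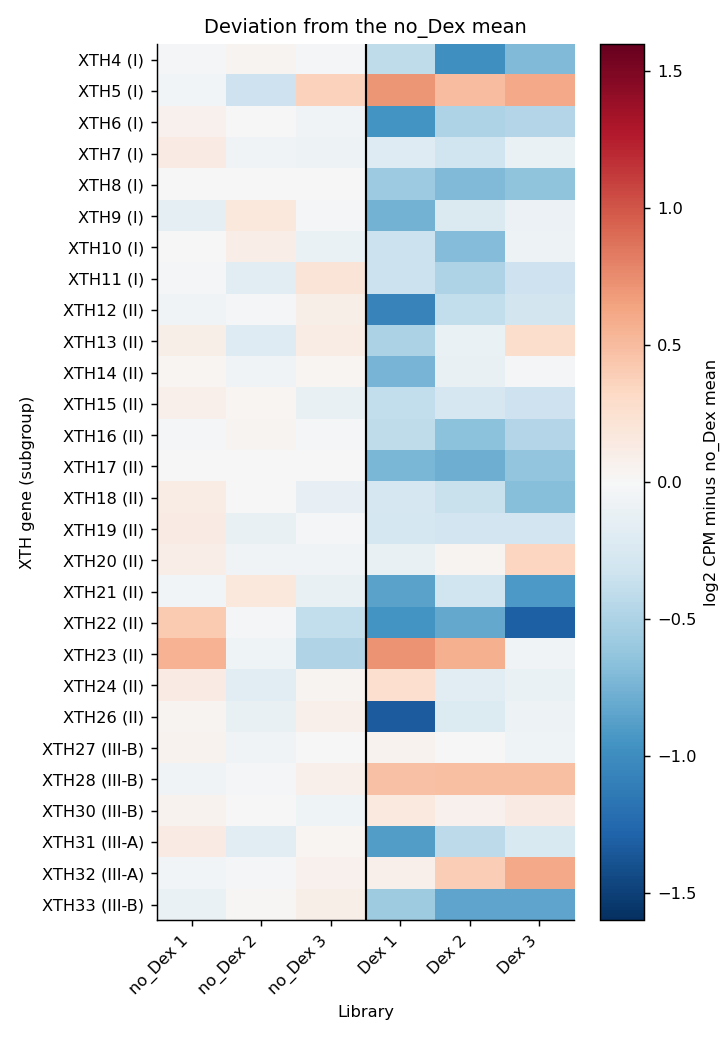
Deviation of log2 CPM from the no_Dex mean for the 28 tested XTH genes (rows) in each library (columns), blue for lower and red for higher. XTH8, XTH16, XTH17, XTH22 and XTH33 are blue in all 3 Dex libraries, and XTH26 and XTH14 are bluer in Dex replicate 1 than in the other Dex libraries.

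The summed levels of root hair, endodermis and photosynthetic cell markers were each also lowest in Dex replicate 1. Not every marker followed its sum. Among the Dex libraries the root hair marker RSL4 was lowest in replicate 2, and the root hair marker RHD6 and the endodermis marker MYB36 in replicate 3. The 7 root hair markers summed to 290, 246 and 255 CPM in no_Dex and to 144, 223 and 243 CPM in Dex, with none at 0. Of these, EXPA7, a root hair expansin, fell by 0.48 on the log2 scale, RSL4, a regulator of root hair growth, fell by 0.59 (edgeR, BH-adjusted p = 0.0362 and 0.00438), and 5 were not called. The EXPA7 call did not hold when any 1 no_Dex library or Dex replicate 2 was left out (0.0506 to 0.124), and COBL9 was called lower with the replicate block (0.0320). The 4 endodermis markers summed to 158 to 176 CPM in no_Dex and to 129, 150 and 136 CPM in Dex. One of them, CASP2, a Casparian strip protein, fell by 0.39 (edgeR, BH-adjusted p = 0.0467; not called without any 1 no_Dex library or Dex replicate 3, 0.0848 to 0.167), and 3 were not called, of which CASP1 was called lower with the replicate block (0.0146). The 4 markers of photosynthetic cells summed to 11153 to 12693 CPM in no_Dex and to 6371, 9910 and 9710 CPM in Dex, and LHCB1.3, a light-harvesting protein, fell by 0.71 (edgeR, BH-adjusted p = 0.0199; not called without any 1 no_Dex library, 0.0528 to 0.0890). The other 3 were not called, and RBCS1A, a Rubisco subunit, stood at 3335, 3133 and 2865 CPM in no_Dex and at 2155, 3586 and 3534 CPM in Dex, a log2 fold change of -0.01. The shares that fell were 28.6% of the root hair markers, 25% of the endodermis markers and 25% of the photosynthetic cell markers. Of all tested genes 8.40% fell. Markers of roots and of green tissue were thus all detected, as in whole seedlings, and their part in the XTH values was not tested.

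Of the 22 tested genes of the 4 context lists (touch, root hair, endodermis and green tissue) 5 fell, where 8.40% of all tested genes fell. The number was 1 of 22 without any 1 of the no_Dex libraries. In those fits, without replicates 1, 2 and 3 in turn, 4.70%, 3.66% and 4.27% of all tested genes fell. Of 7 genes listed for touch and handling, 1 fell (14.3%), none rose and 6 were not called, a share near the 8.40% of all tested genes that fell. One of the 7, AT2G41110, was listed as TCH1, but the reference annotation names it CAM2 and does not give TCH1 among its names. It was not called. The calmodulin-like TCH2 stood at 55.6, 56.6 and 52.2 CPM in no_Dex and at 47.9, 46.8 and 43.5 CPM in Dex, and fell by 0.25 (SE 0.06; edgeR, BH-adjusted p = 0.0283), a call kept without Dex replicate 1 and lost without any other library (0.0517 to 0.115). TCH3, another calmodulin-like gene, stood at 297, 278 and 209 CPM in no_Dex and at 267, 221 and 164 CPM in Dex, with a log2 fold change of -0.27 (SE 0.18; edgeR, BH-adjusted p = 0.370). Each Dex value of TCH3 lay below the no_Dex value of the same number, and with the replicate block TCH3 was called lower (edgeR, BH-adjusted p = 0.0240). CML38 had a log2 fold change of 0.63 (edgeR, BH-adjusted p = 0.0808) and was called higher with the block (0.0101), by the DESeq2 Wald test (0.0169) and without Dex replicate 1 (0.00213). The change of XTH22 was larger in size than that of any of these 7 genes, a difference that was not tested. The part of handling in the XTH22 values was not tested.

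The other genes of xyloglucan metabolism were tested as well. All 3 enzymes that trim xyloglucan side chains in the wall fell, where 8.40% of all tested genes fell. The α-xylosidase XYL1 stood at 420.4, 427 and 402 CPM in no_Dex and at 321, 293 and 326 CPM in Dex, and fell by 0.41 (SE 0.07; edgeR, BH-adjusted p = 0.00574). The β-galactosidase BGAL10 stood at 85.8, 85.0 and 87.3 CPM in no_Dex and at 62.4, 55.3 and 56.0 CPM in Dex, and fell by 0.57 (SE 0.06; edgeR, BH-adjusted p = 0.00107). The fucosidase AXY8 stood at 100.4, 93.0 and 94.8 CPM in no_Dex and at 74.5, 73.2 and 72.0 CPM in Dex, and fell by 0.39 (SE 0.05; edgeR, BH-adjusted p = 0.00294). In all 3 the groups were far apart relative to their spread, and the calls held without any 1 library.

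Of 15 genes of xyloglucan synthesis, 4 fell (26.7%, beside 8.40% of all tested genes), none rose and 11 were not called. Their median log2 fold change was -0.12. CSLC4 and CSLC5, glucan synthases of the backbone, fell by 0.30 and 0.31 (SE 0.07 and 0.06; edgeR, BH-adjusted p = 0.0289 and 0.0137). The galactosyltransferase XLT2 stood at 21.7, 21.7 and 22.1 CPM in no_Dex and at 11.6, 14.3 and 16.6 CPM in Dex, and fell by 0.63 (SE 0.12; edgeR, BH-adjusted p = 0.0111). AXY4, which acetylates xyloglucan, fell by 0.35 (SE 0.07; edgeR, BH-adjusted p = 0.0152). In these 4 genes the call was kept without Dex replicate 1 and lost without no_Dex replicate 2 (0.0512 to 0.106), and in CSLC4, CSLC5 and AXY4 also without Dex replicate 2 (0.0521 to 0.0994). It was also lost without no_Dex replicate 1 in CSLC4 and CSLC5 (0.0820 and 0.0504), without no_Dex replicate 3 in CSLC4 and AXY4 (0.0915 and 0.0625) and without Dex replicate 3 in CSLC4 (0.0899). The xylosyltransferases XXT1 and XXT2 had log2 fold changes of -0.22 and 0.01 (edgeR, BH-adjusted p = 0.0623 and 0.893), and XXT1 was called lower with the replicate block (0.0304). Summed per length, the synthesis genes stood at 341 ± 4.25 RPKM (SD, n = 3) in no_Dex and 309 ± 5.98 RPKM in Dex, a Dex mean of 90.7% of the no_Dex mean beside 77.7% for the XTHs. Over both lists 7 of 18 genes fell (38.9%), where 8.40% of all tested genes fell. The number was 3 without no_Dex replicate 2 and 4 without Dex replicate 2, where 3.66% and 4.84% of all tested genes fell. Of the reference genes, ACT2 and PP2AA3 were not called (log2 fold change -0.18 and 0.08; edgeR, BH-adjusted p = 0.133 and 0.330) and UBQ10 rose by 0.32 (edgeR, BH-adjusted p = 0.0185; not called without no_Dex replicate 2 or 3 or Dex replicate 3, 0.0713 to 0.0902).

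Members also lie next to each other. On chromosome 5, XTH12, XTH13, XTH25 and XTH22 lie in that order on the minus strand, with AT5G57535 between XTH12 and XTH13, and of them XTH22 fell. On chromosome 4, XTH24, XTH18 and XTH19 follow each other on the minus strand, with 5161 bases between XTH24 and XTH18, and XTH18 and XTH19 fell while XTH24 had a log2 fold change of 0.00. XTH23 and XTH14 lie 363 bases apart on chromosome 4, and neither was called. XTH7 (AT4G37800) lies 3283 bases from AT4G37810, annotated as an EPIDERMAL PATTERNING FACTOR-like protein. AT4G37810 had 25, 39 and 32 pairs in no_Dex and 114, 153 and 131 pairs in Dex and rose by 2.09 on the log2 scale (with an SE of 0.22; edgeR, BH-adjusted p = 0.00112), whereas XTH7 had -0.21 and was not called. Apart from XTH15, no member overlapped another annotated locus.

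The 250 bases before each annotated gene start in TAIR10.1 were searched on both strands for 4 motifs, whose letters do not show binding. The G-box CACGTG was found before 0 of 33 members and before 6.49% of 27443 protein-coding genes. TGTCTC, the auxin response element, was found before 2 members (6.06%; 10.95% of all), and TTACGT, a core of NAC binding sites, before 3 (9.09%; 10.3% of all). CGTGTG, a brassinosteroid response element bound by BZR1, was found before XTH2, XTH8, XTH23 and XTH25, which is 12.1% of members and 5.37% of all. CGTGTG and CACGTG can share letters, which did not arise in these members since none holds CACGTG. Of the 13 called members, XTH6 (TGTCTC) and XTH8 (CGTGTG) held a match and the other 11 held none of the 4. The sequences before XTH22 and XTH23, the pair whose ratio differed most, are printed 5′ to 3′ on the strand of each gene. They are chr5:23308681-23308930, minus strand, and chr4:13128144-13128393, plus strand, and capitals mark CGTGTG.
XTH22: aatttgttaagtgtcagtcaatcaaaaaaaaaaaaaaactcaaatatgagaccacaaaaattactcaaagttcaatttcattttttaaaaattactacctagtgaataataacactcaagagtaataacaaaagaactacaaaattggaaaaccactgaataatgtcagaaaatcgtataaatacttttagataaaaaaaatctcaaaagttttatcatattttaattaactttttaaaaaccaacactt
XTH23: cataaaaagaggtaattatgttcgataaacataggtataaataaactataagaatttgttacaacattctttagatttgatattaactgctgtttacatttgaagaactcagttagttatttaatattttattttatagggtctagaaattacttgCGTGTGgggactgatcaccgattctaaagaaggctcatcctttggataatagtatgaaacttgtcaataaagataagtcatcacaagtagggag
The sequence before XTH23 has 1 match to CGTGTG, starting 94 bases before the gene start, and the sequence before XTH22 has no match to any of the 4.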

How the data were processed

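Per the submitters' processing notes, Bowtie2 and the TAIR10 build were used. Each deposited file, per the file headers, gives for every gene model its length in bases (unit other), a count of single reads and a count of properly paired reads, neither normalized, after removal of reads with equally good alignments elsewhere. The libraries were polyA-selected and not stranded, per the labels' protocols. Between 26161582 and 29481253 pairs were counted per library, 58710 to 91701 of them in the XTHs, with a median of 513 per tested gene and library. Limits for a count of 0 cover counting error only.

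The pair counts were analysed here with edgeR 4.0.16 (R 4.3.3). Low models were removed by filterByExpr (at least 10 pairs, 15 in total), libraries were scaled by TMM, and Dex was tested against no_Dex by the two-sided quasi-likelihood test without pairing. An SE is the size of the log2 fold change over the root of its F. Alternatives were DESeq2 1.42.0, limma 3.58.1 (voom), other filters, single reads, length or length and GC offsets, a replicate block, a minimum fold change and leaving out each library. The test was tried on simulated data first.

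Positions and sequences are those of TAIR10.1, found by locus code, because the files carry no coordinates. No reference protein sequences were used here, so the planned pairwise protein comparison was made on coding sequences (MAFFT 7.526). The active-site patterns were searched in the translated coding sequences, and the versions of the stretch are those of its encoded residues. The planned active-site pattern, [DE]E[ILV]D[FLM][EN]F[LM]G, missed 7 members. After the matches had been seen, 3 broader patterns were tried, and the last, .E.D.E..G (a dot is any residue) with its first codon within codons 90 to 130, was kept. It finds 32 members and is loose. The version shared by 22 members also matches the planned pattern, and XTH9, XTH29, XTH30, XTH31, XTH32 and XTH33 match only a broader one. The promoter window was shortened to the 250 bases before the start after a first search that ran 50 bases past it, where TGTCTC and TTACGT each matched 1 more member. The comparison of closest pairs was not planned and was added after the values were seen. Subgroups and gene roles are general knowledge, not from the files.

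The members, the gene lists and the tests were chosen with earlier results of these data known. The rule was to account for all 33 members, with values by library for each called one, and to name the called genes of the other lists. The series text calls the samples biological replicates, and replicate libraries differed beyond counting noise (chi-square per degree of freedom 3.82 to 26.0). Same-numbered libraries deviated from their group means together (correlations across genes 0.171, 0.119 and 0.125, against at most 0.0177 for other pairs). The numbers may thus mark pairs, on the data alone, but the main test and its calls did not use them. A fit with the replicate number as a block did, and in it 13 members fell and 4 rose. Of all 21344 tested genes 10.05% fell and 1604 rose in that fit, beside 1279 that rose in the main fit. Blocked values are given where they change the call of an XTH or of another listed gene.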

Additional observations from a re-analysis of the deposited data

How the results depend on the processing

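Of 503 values of single members under an alternative, 433 kept their direction and side of the threshold, 38 lost a call, 18 gained one and 14 changed sign; none of those that changed sign was called. Members called higher numbered 4 with the replicate block (also with length offsets, and with length and GC offsets), 1 with length offsets, with single reads and with length and GC offsets, and 0 with a minimum fold change of 1.5, which also left 0 members lower, 0 xyloglucan genes lower and 0 genes of the context lists lower, beside 124 higher and 77 lower among all genes. Without 1 library at a time, members ranged from 1 to 3 higher and 6 to 13 lower, xyloglucan genes from 3 to 10 lower, context genes from 0 to 1 higher and 1 to 7 lower, and all genes from 519 to 2339 higher and 785 to 2726 lower. With the block and length offsets 1 xyloglucan gene was higher. Of the context genes 1 was higher by DESeq2 and in each block fit, and 8 were lower by DESeq2, with the block and with the block plus length and GC offsets. DESeq2 called 13 members lower, with XTH12 and XTH31 added. The replicate block changed no member's call other than those of XTH9, XTH12, XTH23 and XTH32. The sign of XTH24 turned with the 1 CPM filter (-0.0020), limma-voom (-0.0049), the block (-0.0036, with length offsets -0.0274, with length and GC offsets -0.0026) and length offsets (-0.0184), and without 1 library it ranged from -0.14 to 0.0868. XTH27 turned to 0.0276 with length and GC offsets and to 0.0279 with the block added, and without 1 library ranged from -0.0387 to 0.0205. Without 1 library XTH13 ranged from -0.305 to 0.10, XTH20 from -0.0405 to 0.201, XXT2 from -0.0023 to 0.0326 and RBCS1A from -0.128 to 0.196. The log2 ratio of the summed level (-0.36) lay between -0.39 and -0.33 in every alternative run for it. Length and GC offsets were added after seeing the data; the cause of these shifts was not tested.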
